A study of Mus musculus with 24 samples.

Results

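The transcripts described here are 8 genes that are normally read as marks of myeloid cells: Lyz2, Cst3, Csf1r, Fcer1g, Tyrobp, Cd14, S100a8 and S100a9. They were used to measure how much myeloid RNA each preparation of mouse CD4+ T cells carried. All probes that the array annotation names for these genes were taken, with Lyz2 also under its older spellings Lyzs and Lyz. This gave 14 probes of 9 genes, out of 17872 genes on the array, because the probes written Lyz carry the gene ID and accession of Lyz1, the neighbouring lysozyme gene. Of the 14 probes, 13 were detected on at least 1 array and entered the tests, and all 9 genes kept a probe. The remaining probe, annotated to Lyz2, was detected on 0 of the 24 arrays. The brightest probe stands for its gene.

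Total RNA was hybridized to Illumina bead arrays from 4 cell states of WT mice and of mice lacking BAF180 in T cells (KO), with 3 arrays for each of the 8 groups, labelled replicates A, B and C. BAF180 is encoded by Pbrm1 and is a subunit of the PBAF chromatin remodelling complex. In the KO animals the floxed gene was deleted by Cre under CD4 regulatory sequences, so that cells that never activate CD4 keep the gene. Labels give all animals as Balb/c mice of 4 to 6 weeks, whereas the methods describe a mixed genetic background before the cross to the Cre line. Resting Naive cells were CD4+CD62L+ cells taken from spleen and lymph node with a magnetic kit, to 95% purity. Stimulated Naive cells had spent 24 hours on plates coated with 1 µg/ml anti-CD3 and 2 µg/ml anti-CD28. Resting Th2 cells were grown on such plates with 10 ng/ml IL-4 and 10 µg/ml anti-IFN-γ, received 100 U/ml IL-2 after 24 hours and were expanded in IL-2 from day 3. Stimulated Th2 cells were resting Th2 cells given 50 ng/ml PMA and 500 ng/ml ionomycin for 1.5 hours. Only the resting Naive cells were therefore profiled without culture. The labels do not say whether replicates were separate animals. The paper states that 3 pairs of WT and BAF180-deficient mice were used for the arrays, without saying which letters form a pair. The p-values measure the spread between these samples.

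Each array detected between 8047 and 10689 of the 25697 probes, at a detection p of at most 0.02. All 12 genes of the T cell identity list, Thy1 and Cd3d among them, were detected on every array. Pbrm1 was lower in all KO arrays than in all WT arrays of its state, in each of the 4 states, with differences of -1.01 to -1.86 on the log2 scale. Its adjusted p in the limma fit was 0.121 in resting Naive cells and between 0.00101 and 0.0141 in the other states.

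Myeloid cells are the granulocytes, monocytes, macrophages and dendritic cells that arise from a common marrow progenitor, and spleen and lymph node both hold them. Lyz2 encodes lysozyme M, which cleaves bacterial cell walls and is made by macrophages and neutrophils. S100a8 and S100a9 encode the subunits of calprotectin, a metal-binding protein that fills the cytosol of neutrophils. Cd14 is a coreceptor that hands lipopolysaccharide to TLR4. Csf1r is the receptor for the macrophage growth factor CSF1. Fcer1g and Tyrobp (also called DAP12) encode short signalling adaptors that carry an activation motif for Fc receptors and other receptors of myeloid and NK cells. Cst3 encodes cystatin C, a secreted inhibitor of cysteine proteases that is high in dendritic cells but is made by most cell types. In a bulk sample, fewer cells of a type and less RNA per cell cannot be told apart.

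The probes within coding sequence are shown for the genes on which the results turn, 5′ to 3′, as deposited. For the lysozymes they show how closely the probes of the neighbouring genes resemble each other, and capitals mark the bases at which the aligned probes differ.
Lyz2: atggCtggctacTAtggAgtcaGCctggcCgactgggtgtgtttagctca
Lyz1: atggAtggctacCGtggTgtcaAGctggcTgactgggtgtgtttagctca
S100a8: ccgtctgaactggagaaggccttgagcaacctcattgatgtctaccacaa
Tyrobp: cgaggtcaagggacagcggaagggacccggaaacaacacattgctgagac
Cst3: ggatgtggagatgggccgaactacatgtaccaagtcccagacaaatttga

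The lysozyme probes are identical at 43 of 50 bases and differ at 7. A further pair from the ends of the Lyz2 and Lyz1 transcripts differs at 5 of 48 aligned bases. Both genes lie side by side on chromosome 10, Lyz2 at chr10:117277541-117282272 and Lyz1 at chr10:117287795-117292868 (GRCm38.p6, from RefSeq). S100a8 (chr3:90669071-90670034) and S100a9 (chr3:90692630-90695721) are likewise neighbours. The 3 Lyz1 probes disagreed. The brightest was detected on 14 arrays, all 6 of resting Naive cells included, whereas the other 2, which are those aligned with Lyz2 probes above, were detected only on the replicate C arrays of resting Naive cells. The Lyz1 values below come from the brightest probe, and its RNA cannot be assigned to Lyz1 rather than Lyz2 with certainty.

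In resting Naive cells, all 9 genes were detected on 6 of 6 arrays, and in the other states most of them were at background. All values are log2 of normalized intensity, on which background lies near 4, and are compared within a probe only. Lyz2 read 8.95, 8.85 and 11.48 in the WT replicates A, B and C of resting Naive cells. In the KO replicates it read 9.38, 9.43 and 9.93. On the 18 arrays of the other states Lyz2 was not detected, and its values lay between 4.12 and 4.33. Every resting Naive array was thus far above every cultured array, and the highest single value belonged to WT replicate C.

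S100a8 behaved likewise, with 8.56, 7.14 and 10.80 in WT and 9.29, 9.63 and 10.22 in KO resting Naive cells. It was detected in 2 of the 6 stimulated Naive arrays, both labelled replicate C, at 5.93 in WT and 4.86 in KO. It was detected on none of the 12 Th2 arrays. S100a9 was detected on the resting Naive arrays only, at 6.29, 5.41 and 7.90 in WT and 6.57, 7.31 and 7.40 in KO. For both calprotectin subunits the WT arrays spanned the KO arrays, with WT replicate C highest and WT replicate B lowest.

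Csf1r read 8.39, 7.43 and 8.003 in WT and 7.80, 8.32 and 7.98 in KO resting Naive cells. Its brightest probe stayed weakly detected in culture, on 15 of 18 arrays, with values of 4.52 to 5.08. Its second probe was detected on the 6 resting Naive arrays alone. Cd14 read 7.03, 7.28 and 7.65 in WT and 7.06, 7.91 and 7.43 in KO, and was not detected after culture. By the brightest probes, both receptors thus varied by less than 1 among the resting Naive arrays. The second Csf1r probe varied by 1.07, from 5.27 in KO C to 6.34 in KO A.

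The adaptors differed from each other in culture. Tyrobp read 6.52, 5.89 and 6.21 in WT and 5.67, 6.66 and 6.64 in KO resting Naive cells, and was not detected on any cultured array. Fcer1g read 8.93, 10.31 and 10.43 in WT and 9.26, 9.73 and 9.41 in KO. Fcer1g was detected on 8 of the 18 cultured arrays, namely the 3 stimulated Naive WT arrays and the replicate C array of each of the other 5 groups. In Th2 cells those replicate C arrays read 5.19 (resting WT), 5.34 (resting KO), 4.60 (stimulated WT) and 4.87 (stimulated KO). No Th2 array of replicate A or B passed detection for Fcer1g.

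Cst3 stood apart from the rest, since it was detected on all 24 arrays at a high level. In resting Naive cells it read 10.03, 10.29 and 9.77 in WT and 9.71, 10.06 and 10.07 in KO. In stimulated Naive cells it read 8.72, 8.83 and 8.99 in WT and 8.74, 9.25 and 9.04 in KO. In Th2 cells the 12 values ranged from 9.34 to 10.22, so that they overlapped those of resting Naive cells, whereas the stimulated Naive arrays lay below all of them.

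**Figure D1:**
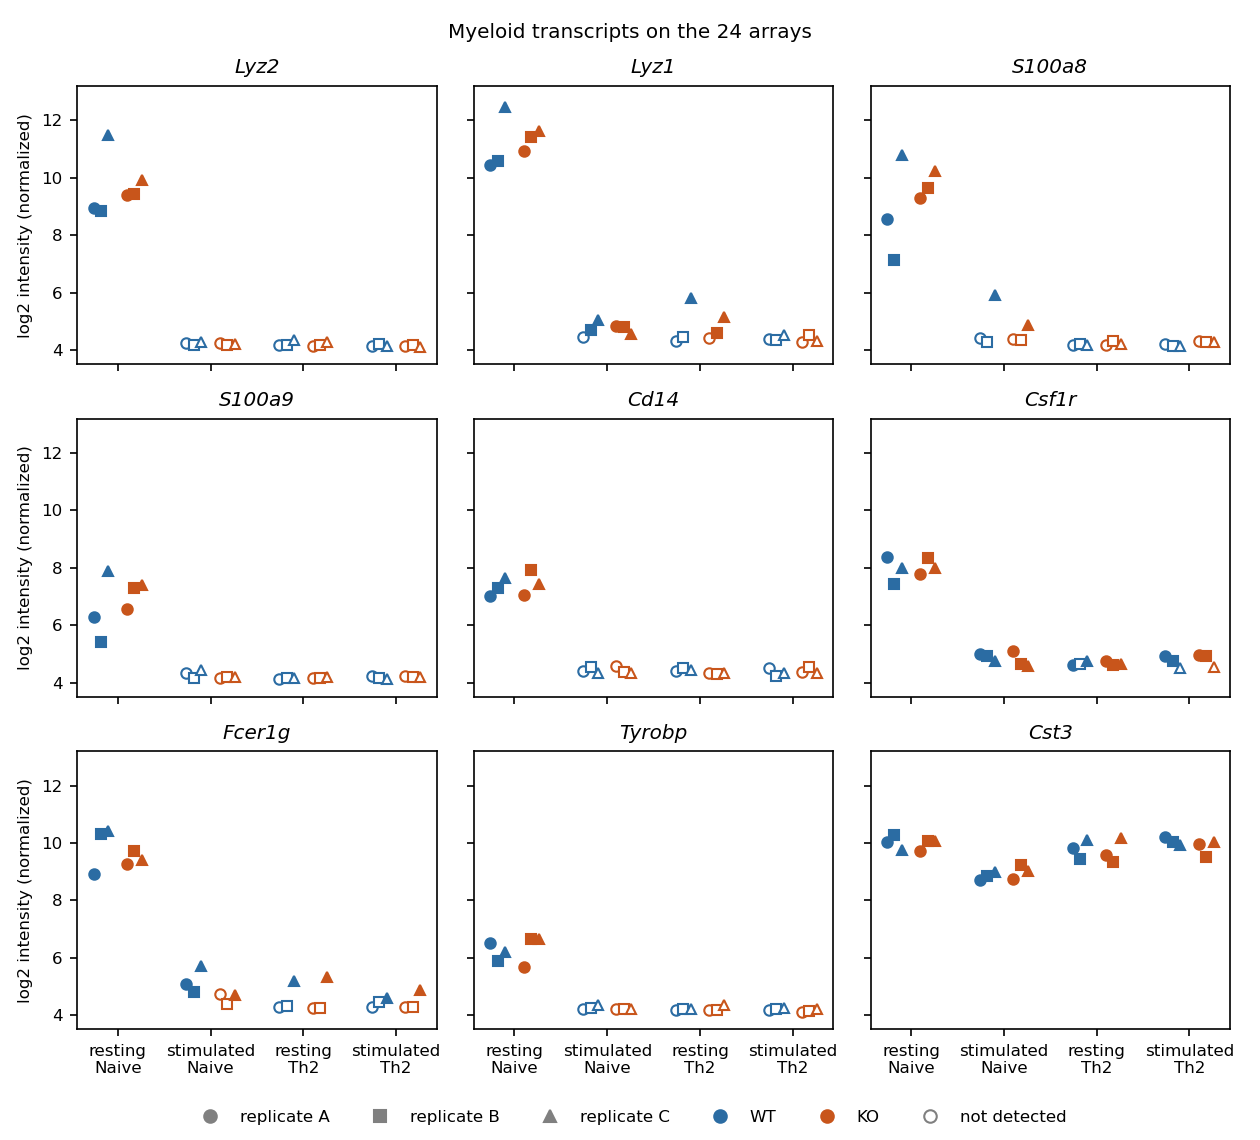
Normalized log2 intensity (vertical axis) of the brightest probe of each of the 9 genes on the 24 arrays, by cell state (horizontal axis), genotype (colour) and replicate letter (shape); open symbols were not detected. Every gene but Cst3 sits near 4 to 6 outside resting Naive cells, and Cst3 stays between 8.72 and 10.29 throughout.

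All 9 genes were lower in stimulated Naive than in resting Naive cells by limma (adjusted p below 0.05 over 14246 probes, 6 arrays against 6). Over all 10419 genes tested, 28% were lower and 28.4% higher by the same rule. In all 9 genes every stimulated array lay below every resting array, which held for 16.3% of all genes. Lyz2, S100a9, Cd14 and Tyrobp were detected in resting Naive cells alone, as were 605 of the 10419 genes, and passed the filter through those arrays, so that their direction was fixed by it and their share in the count is no result. The other 5 were also detected in stimulated Naive cells, Lyz1 on 5 of 6 arrays, S100a8 on 2, Fcer1g on 4 and Csf1r and Cst3 on 6, and where some arrays were undetected the difference rests partly on values at background. Where a gene was not detected in the lower group its fold is a bound, set by the dimmest signal called detected on each array.

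Among the lysozymes, Lyz2 was at least 32.7-fold lower after stimulation (adjusted p = 1.77e-12) and Lyz1 fell by 6.52 (SE 0.29, adjusted p = 1.34e-13). The other 2 Lyz1 probes, near background, had differences of -0.92 and -0.38. The second detected Lyz2 probe was dimmer and so shows a smaller drop. It averaged 6.54 in resting Naive, 4.25 in stimulated Naive and 4.27 in resting Th2 cells, and was detected in the first alone. S100a8 fell by 4.57 (SE 0.39, adjusted p = 3.19e-09), and S100a9 was at least 4.5-fold lower (adjusted p = 2.48e-08). Both calprotectin subunits and both lysozymes were thus lower in every stimulated array than in every resting one.

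Of the receptors, Csf1r fell by 3.15 (SE 0.14, adjusted p = 1.75e-13) and Cd14 was at least 6.74-fold lower (adjusted p = 4.64e-14). Of the adaptors, Fcer1g fell by 4.77 (SE 0.25, adjusted p = 2.04e-12) and Tyrobp was at least 3.08-fold lower (adjusted p = 6.32e-11). Cst3 changed least, and fell by 1.06 (SE 0.15, adjusted p = 4.13e-06), or 2.09-fold. Its intensities before normalization overlapped, at 385.7 to 756.8 in resting and 382 to 787 in stimulated Naive cells. They were 500.8 to 1985.2 in resting Th2 cells. The fall of Cst3 thus appears only after normalization between arrays.

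Against the same resting Naive arrays, resting Th2 cells showed 8 of the 9 genes lower, where 24.6% of all genes were lower and 26% higher. The arrays of the 2 states did not overlap for these 8 genes, which held in this direction for 14% of all genes. Lyz2, S100a9, Cd14 and Tyrobp passed the filter through resting Naive arrays alone. Their direction was therefore fixed here too, and their share in these counts is no result. S100a8 was detected on none of the resting Th2 arrays, so its difference is against values at background. Lyz2 was at least 33.9-fold lower, S100a8 at least 25.7-fold, Cd14 at least 7-fold, S100a9 at least 4.67-fold and Tyrobp at least 3.2-fold. Lyz1 fell by 6.47, Fcer1g fell by 5.07 and Csf1r fell by 3.33, with 3, 2 and 5 of the 6 resting Th2 arrays detected, so that these differences too rest partly on values at background. Adjusted p-values of the 8 genes were 2.75e-08 or smaller. Cst3 differed by -0.25 (SE 0.15, adjusted p = 0.185), with a 95% confidence interval of -0.56 to 0.07. As both comparisons share the resting Naive arrays, they are not independent of each other.

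Restimulation of Th2 cells with PMA and ionomycin called 0 of the 9 genes by limma, and 0 had an unadjusted p below 0.05, while 22.2% of all genes were lower and 17.4% higher. Cst3 differed by 0.20 (SE 0.15), with an interval of -0.11 to 0.52. The other differences lay between -0.39 (Lyz1) and 0.11 (Csf1r), most of them between values at background, where no difference could be measured.

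**Figure D2:**
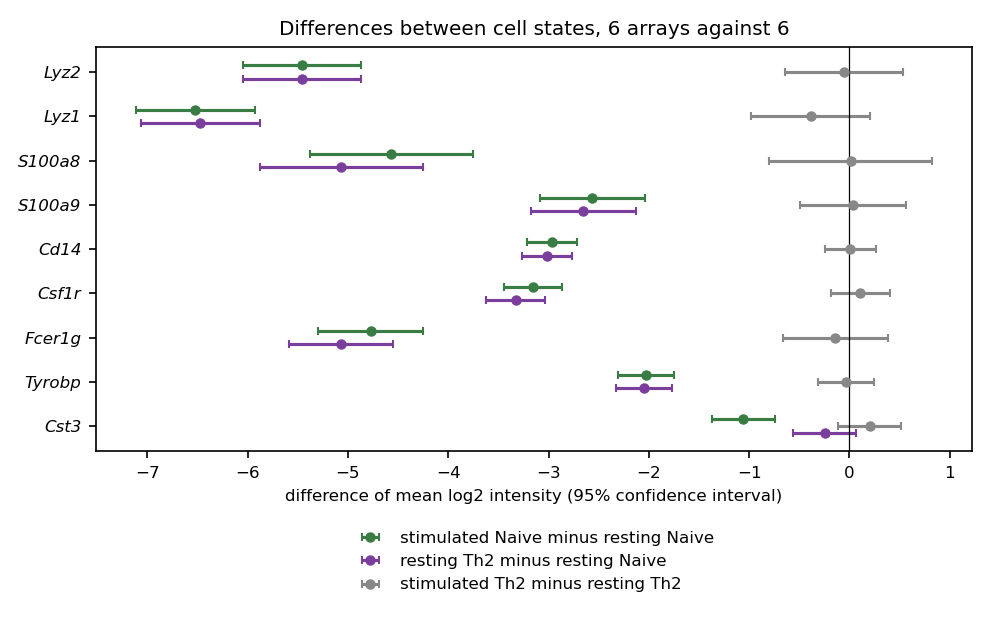
Difference of mean log2 intensity (horizontal axis) with its 95% confidence interval for each gene (vertical axis) in 3 comparisons of states, WT and KO averaged. The first 8 genes lie between -2.03 and -6.52 in both comparisons with resting Naive cells, Cst3 lies nearer 0, and all 9 intervals include 0 for stimulated against resting Th2 cells.

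The next question was whether BAF180-deficient and WT preparations carried different amounts of these transcripts, which would bear on every genotype comparison made with the same RNA. Genotype differences were called where 4 conditions taken from the methods held together. The difference divided by the SD of all differences (the Z-ratio) had to exceed 1.5 in size, the false discovery rate had to be under 0.3, the p had to be under 0.05 and the mean signal had to be positive. In resting Naive cells 0 of 9 genes were called by these criteria on the limma fit, beside 0.758% of all genes, and 0 had an unadjusted p below 0.05. For 0 of 9 genes did the 3 KO arrays lie apart from the 3 WT arrays, beside 7.99% of all genes.

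KO minus WT was largest for S100a8, at 0.89 (SE 0.55, adjusted p = 0.879, limma) with a 95% interval of -0.27 to 2.04, and next for S100a9, at 0.56 (SE 0.36, interval -0.18 to 1.30). Lyz2 differed by -0.18, within -1.01 to 0.65, and Fcer1g by -0.42, within -1.16 to 0.31. Lyz1 differed by 0.16, within -0.68 to 1.004. All 5 intervals thus reach a 2-fold difference. Those of the remaining genes did not: Csf1r within -0.32 to 0.51, Cd14 within -0.21 to 0.50, Tyrobp within -0.28 to 0.51 and Cst3 within -0.53 to 0.36.

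The genotype result for the neutrophil and lysozyme genes rested on WT replicate C. Without WT replicate C, 3 of the 9 genes were called higher in KO, beside 2.39% of all genes: S100a8 by 1.87 (adjusted p = 0.0246), S100a9 by 1.24 (adjusted p = 0.00651) and Lyz2 by 0.68 (adjusted p = 0.0185, limma), the last with its sign turned. Leaving out every array labelled C, a choice made after seeing the data, called Lyz1 as well, 4 of 9 genes beside 1.52% of all genes. Without WT replicate C, the Csf1r difference was 0.12 (SE 0.23) and the Tyrobp difference 0.12 (SE 0.22), and neither was called.

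**Figure D3:**
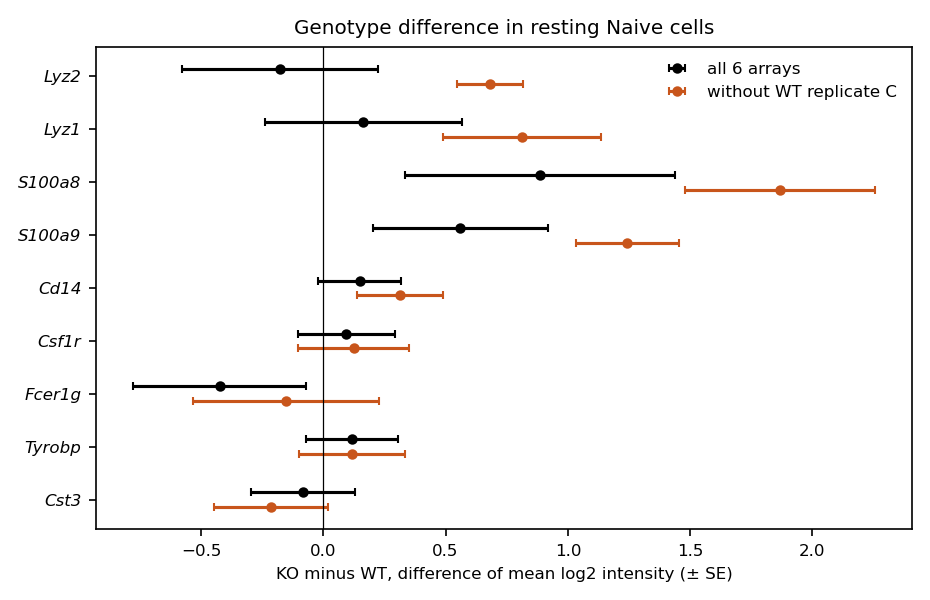
KO minus WT difference of mean log2 intensity (horizontal axis, ± SE) in resting Naive cells for the 9 genes, with all 6 arrays (black) and without WT replicate C (orange). S100a8 moves from 0.89 to 1.87 and Lyz2 from -0.18 to 0.68, whereas Csf1r and Tyrobp hardly move.

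In the other states 0 of 9 genes were called by genotype with these criteria: in stimulated Naive cells beside 0.115% of all genes, in resting Th2 cells beside 0.106% and in stimulated Th2 cells beside 0.096%. None had an unadjusted p below 0.05 there. The KO and WT arrays lay apart for 2, 1 and 1 of the 9 genes in these states, a count not made over all genes. They were Fcer1g and Tyrobp, then Cd14, then S100a8, and only Fcer1g was detected on any array concerned. In stimulated Naive cells Fcer1g averaged 5.20 in WT and 4.61 in KO, near background. Cst3, the only gene well above background in these states, differed by 0.16 (interval -0.29 to 0.60), -0.08 (-0.53 to 0.36) and -0.22 (-0.66 to 0.23) in that order. Whether the genotype difference changed with state was tested by limma's interaction term, which called 0 of the 9 genes, with 0 at an unadjusted p below 0.05. Of all genes, 0.0096% passed it between stimulated and resting Naive cells, 0.0096% between resting Th2 and resting Naive cells, and 0% between stimulated and resting Th2 cells.

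The 6 resting Naive arrays differed from each other much more in some of the 9 genes than in others. The spread from lowest to highest array was 3.66 for S100a8 (12.6-fold), 2.63 for Lyz2, 2.49 for S100a9 and 2.01 for Lyz1. Only 0.182% of all genes had a wider spread than S100a8, and 1.5% a wider spread than Lyz1. By contrast the spread was 0.99 for Tyrobp, 0.96 for Csf1r, 0.89 for Cd14 and 0.58 for Cst3, against a median of 0.68 over all genes. Fcer1g lay between them, at 1.50.

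S100a8, S100a9 and Lyz2 ranked the 6 arrays in the same order: WT C, KO C, KO B, KO A, WT A and WT B. Lyz1 exchanged the last positions. These are the orders of the brightest probes. The second detected Lyz2 probe was also highest in WT C, but it was lowest in KO A. It read 6.02 there, 6.03 in WT B and 6.17 in WT A, and its spread was 1.40. Csf1r and Tyrobp ranked them otherwise, with WT A and KO B highest in turn. Hence, by the brightest probes, the KO arrays fell between WT C and the other WT arrays in the first set of genes. WT C was not the highest array for either Csf1r or Tyrobp.

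In WT, replicate C exceeded the mean of A and B by over 1 in 4 of the 9 genes (2.95 for S100a8, 2.58 for Lyz2, 2.05 for S100a9 and 1.94 for Lyz1), beside 2.53% of all genes. In KO it did so in 0 of 9, beside 1.17%. WT replicate C also detected the most probes of its group, 9498, compared with 8047 for A and 8550 for B, and so did KO replicate C, with 9234 compared with 8417 and 8918.

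Marker lists of other cells were set beside these values. Ltf, which encodes the neutrophil granule protein lactoferrin, read 5.96, 4.79 and 8.62 in WT A, B and C and 6.93, 6.70 and 7.13 in KO. In this list 11 of 12 kept genes were highest in WT C, beside 20.3% of all genes, and the exception was Il1b, an inflammatory cytokine of monocytes as well, which was highest in KO B. The number of neutrophil genes detected ranged from 2 to 12 among the WT arrays and from 6 to 11 among the KO arrays. The summed normalized level ranged from 1104 to 1613 and from 748 to 2235. Il1b weighs most in this sum, at 10.01 in WT A, 8.85 in WT C, 10.84 in KO B and 7.74 in KO C. The sum therefore need not follow the other 11 genes. No marker of the list was undetected throughout WT resting Naive cells, and Cxcr2 was undetected throughout KO.

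Of 5 kept erythroid genes 4 were highest in WT C, and the exception, the beta globin gene Hbb-b1, was highest in KO A. Hba-a1, an alpha globin gene, read 11.21, 8.28 and 13.55 in WT and 11.85, 12.36 and 12.52 in KO, which is the order of S100a8. Slc4a1, the red cell anion exchanger, read 8.17, 4.86 and 11.80 in WT and 8.04, 9.09 and 9.40 in KO. The list's summed level ranged from 395 to 16370 in WT and from 4055 to 6719 in KO, with 1 to 5 and 4 to 5 of 5 genes detected. In the macrophage and monocyte list 6 of 11 kept genes were highest in WT C and 5 were lowest in WT B, beside 20.3% and 14.2% of all genes. C1qb, a subunit of complement C1q, read 10.25, 9.68 and 11.04 in WT and 10.07, 10.40 and 10.30 in KO, and the list's summed level ranged from 2847 to 5587 and from 3368 to 4635. The part of these cells in the genotype values was not tested.

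**Figure D4:**
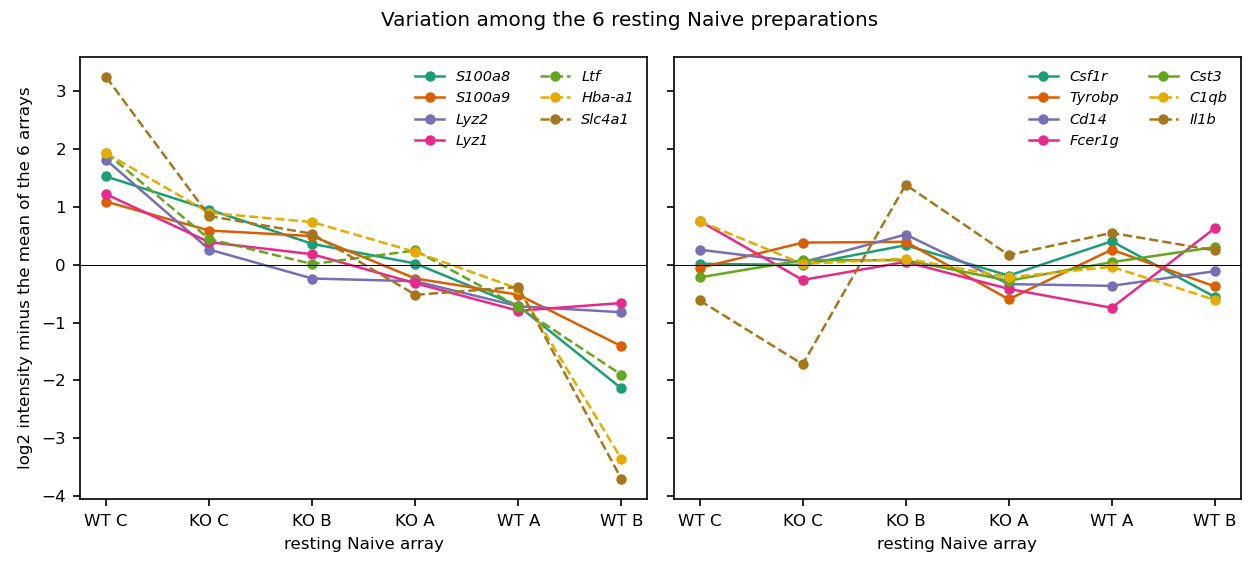
Log2 intensity minus the mean of the 6 resting Naive arrays (vertical axis), with arrays in the order of S100a8 (horizontal axis); solid lines are the 9 genes and dashed lines are list markers. On the left S100a8, S100a9, Lyz2, Lyz1, Ltf, Hba-a1 and Slc4a1 run from high in WT C to low in WT A or WT B, whereas on the right the highest array varies, being WT A for Csf1r, WT B for Cst3, WT C for Fcer1g and C1qb, and KO B for Tyrobp, Cd14 and Il1b.

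The partners of these genes were followed in the same fit. Of 20 receptors and kinases that signal with Fcer1g or Tyrobp, 11 were kept. Of the 11, 9 were lower in stimulated Naive and 9 in resting Th2 than in resting Naive cells (0 higher), beside 28% and 24.6% of all genes. As 6 of the 11 were detected in resting Naive cells alone and passed the filter through those arrays, this count was in large part fixed by the filter. Plcg2, a phospholipase also used in B cells, and Btk, a kinase of B and myeloid cells, had the highest means of them over all 24 arrays. Btk fell by 1.46 with stimulation (adjusted p = 0.0015) and fell by 1.78 in Th2 cultures (adjusted p = 2.96e-04). Plcg2 differed by -0.68 (adjusted p = 0.0918) with stimulation and fell by 1.17 in Th2 cultures (adjusted p = 0.00607).

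The pathway of Cd14 and calprotectin, which runs from TLR4 and TLR2 through MyD88, did not go down as a whole. Of its 10 kept genes 5 were lower and 2 higher in stimulated Naive cells, beside 28% and 28.4% of all genes. In resting Th2 cells 4 were lower and 2 higher, beside 24.6% and 26% of all genes. Myd88, the adaptor shared by most Toll-like receptors, read 10.07 on average in resting Naive and 9.97 in stimulated Naive cells (adjusted p = 0.526), and fell by 0.84 when Th2 cells were restimulated (adjusted p = 1.57e-05). Traf6, the ubiquitin ligase below it, was called in none of the 3 comparisons of states.

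Of the CSF1R ligands and myeloid transcription factors, 7 of 10 genes were kept. With stimulation of Naive cells 2 fell and 1 rose, beside 28% and 28.4% of all genes. In resting Th2 cells 3 fell and 1 rose, beside 24.6% and 26% of all genes. Cebpb, which encodes a C/EBP factor, had differences of -0.98 (adjusted p = 3.62e-04) and -1.61 (adjusted p = 1.78e-06). Irf8, a factor of monocytes and dendritic cells that lymphocytes also make, rose by 0.64 with stimulation (adjusted p = 0.0159), fell by 1.52 in Th2 cultures at rest (adjusted p = 6.4e-06) and rose by 2.74 on restimulation (adjusted p = 2.29e-09). Called genes of this list thus lay in both directions, as they did over all genes.

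The macrophage and monocyte list had 18 genes, 17 of them on the array, and Marco, Msr1, Itgam, Fcgr1, Ccr2 and Cybb were detected on no array. Of its 11 kept genes 10 were lower in stimulated Naive and 10 in resting Th2 cells, beside 28% and 24.6% of all genes, and 0 were higher. However, 6 of the 11 were detected in resting Naive cells alone and had to be lower. C1qb fell by 5.99 with stimulation (adjusted p = 1.89e-17), with 1 of 6 stimulated arrays detected, and was at least 52.1-fold lower in resting Th2 cells, where no array detected it. Adgre1, which encodes the macrophage antigen F4/80, averaged 8.34 in resting Naive cells, was detected on 0 of 6 stimulated Naive arrays and was detected again on 5 of 6 resting Th2 arrays (5.85 ± 1.14, SD, n = 6) and 6 of 6 stimulated Th2 arrays (5.68 ± 0.68, SD, n = 6). Of the neutrophil list 12 of 14 genes were kept, and 10 of the 12 were lower in each of the same comparisons, beside the same shares of all genes. However, 7 of the 12 were detected in resting Naive cells alone. Il1b fell by 3.89 with stimulation, where 5 of 6 arrays detected it, and was at least 29.4-fold lower in resting Th2 cells, where none did. None of the 13 lists examined had a gene called by genotype in any state.

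The genes most like the 9, by Pearson's r with the mean of their standardized values over the 24 arrays, were Fcgr4, Pilrb1, C1qb, Klra17, C1qa, Fcna, Mrc1, C1qc, LOC381924 and Sirpb1a, with r from 0.991 to 0.993. Fcna encodes a ficolin and Mrc1 the mannose receptor, both of macrophages. Their means were 6.87 to 11.19 in resting Naive cells and 4.16 to 4.36 in the other states. The coefficient rests on the gap between resting Naive and cultured arrays, since the 24 points fall into these clusters, and says nothing about likeness within a state.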

How the data were processed

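Members and gene lists were chosen with earlier results of these data known. The authors scanned Illumina mouse bead arrays and deposited (GenomeStudio 1.6.0, per the labels) unnormalized intensity and a detection p-value for every probe on every array. Probe coordinates of the table, whose build is not given in the sources used here, were not used. Background was corrected from the detection p-values (neqc of limma 3.58.1 in R 4.3.3, offset 16), followed by log2 transformation and quantile normalization. The filter kept 14246 probes whose detection p was 0.02 or less on any array. Group means of the 8 groups were fitted with limma, with Benjamini-Hochberg adjustment over the kept probes, and the brightest probe stands for a gene. States and interactions were called at an adjusted p below 0.05. Genes were named through RefSeq by Entrez ID, accession or symbol. Named genes are all members, the 2 brightest kept genes of each list, any list gene called by genotype, and the 10 genes most like the members. Cxcr2, Hbb-b1, Clec10a, Cd209a, Prss34 and the list genes detected on no array were named after their values were seen. Deviations of same-lettered WT and KO arrays correlated at 0.30 (A), 0.136 (B) and 0.516 (C) over the 4 states. In resting Naive cells alone these were 0.141, -0.0026 and 0.453. The letters were used as pairs in the replicate block only, and the main fit did not use them. Arrays of a group correlated at 0.949 to 0.989, and none were duplicates. The fit was tested on simulated data. With 3 arrays a group, their number limits the precision. Alternatives covered normalization, offset, filter, replicate block, omitted arrays, call rule and probe summary.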

Additional observations from a re-analysis of the deposited data

How the results depend on the processing

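The counts of called genes were equal to the reported ones in 190 of 196 recomputations over 10 comparisons, with other normalizations, offsets, filters, probe summaries, call rules and omitted arrays. The count was 8 instead of 9 for stimulated against resting Naive cells by the other call rule, and 9 instead of 8 for resting Th2 against resting Naive cells under the 3 settings given for Cst3. The other exceptions were in the genotype count in resting Naive cells, which ranged from 0 to 3 when single arrays were left out (3 without WT replicate C) and was 4 without every array of letter C. With the replicate block, which uses the letters as pairs, 0 of 9 genes were called by genotype in resting Naive cells, and the block changed no other count. Of 27 single-gene differences, 515 of 540 recomputed values kept direction and call, 8 gained a call, 1 lost it (Cst3 in stimulated against resting Naive cells, by the other call rule) and 16 reversed, all of the latter in KO minus WT of resting Naive cells. When single arrays were left out, the difference ranged from -0.63 to 0.68 for Lyz2 (0.68 without WT C), -0.19 to 0.81 for Lyz1 (negative without WT A or WT B), -0.0029 to 1.24 for S100a9 (negative without WT B), -0.0741 to 0.35 for Cd14 (negative without KO B), -0.16 to 0.32 for Csf1r (negative without WT B or KO B), -0.0502 to 0.45 for Tyrobp (negative without WT B, KO B or KO C) and -0.21 to 0.0476 for Cst3 (positive without WT B or KO A). Without letter C it was 0.51 for Lyz2 and -0.0436 for Tyrobp, and with the mean of all probes -0.0545 for Lyz1 and -0.0351 for Csf1r. Cst3 in resting Th2 against resting Naive cells was called lower on the Z-score scale (-0.35, adjusted p = 0.0441, limma), without KO C of resting Th2 cells (-0.36, adjusted p = 0.0441) and without letter C (-0.48, adjusted p = 0.0283), and its adjusted p ranged from 0.0283 to 0.427 over its alternatives. The cause was not tested. Most members lie at background after culture, so no smaller amount could be measured there.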

Other observations

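Transcripts of other blood cells also differed between resting Naive and cultured cells. Over all genes, 28% were lower in stimulated Naive and 24.6% in resting Th2 cells than in resting Naive cells. Some of these blood cell transcripts passed the filter through resting Naive arrays alone and so had to be lower in culture. They were 1 of 7 B cell, 2 of 5 NK cell, 3 of 5 erythroid and 4 of 5 platelet genes. Pax5, Ebf1 and Cr2 of the B cell list, Ncr1 and Gzma of the NK cell list and Epb42 of the erythroid list were detected on no array. Of 7 kept B cell genes, 4 were lower in stimulated Naive and 7 in resting Th2 cells. Cd79b, a chain of the B cell receptor, averaged 8.18 in resting Naive cells and fell by 1.65 with stimulation (adjusted p = 0.0152, limma). It fell by 1.70 in Th2 cultures at rest (adjusted p = 0.0142) and, from there, fell by 1.57 on restimulation (adjusted p = 0.0281). Blk, a B cell kinase, differed by -0.69 with stimulation (adjusted p = 0.2) and fell by 1.24 in Th2 cultures at rest (adjusted p = 0.026), where 2 of 6 arrays detected it. Of 5 kept NK cell genes 3 were lower in each comparison, and Klrd1, the CD94 receptor chain, had differences of -2.35 and -2.43. Of 5 kept erythroid genes 4 were lower in each, and Hba-a1 had differences of -5.35 and -5.64, yet it was still detected on 6 of 6 arrays of both stimulated Naive and resting Th2 cells.

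Of 10 dendritic cell genes 5 were kept, while Itgax, Flt3, Xcr1, Clec9a and Ccl22 were detected on no array. Of the 5, 3 were lower and 1 higher in stimulated Naive cells, and 3 lower and 0 higher in resting Th2 cells. Clec10a and Cd209a passed the filter through resting Naive arrays alone, so they had to be lower. Siglech, a receptor of plasmacytoid cells that uses Tyrobp, had differences of -2.81 and -2.89, both called lower, with 2 and 1 of 6 arrays detected. Ccl17, a chemokine, was detected on 0 of 6 resting Naive and 6 of 6 stimulated Naive arrays and was at least 1.28-fold higher with stimulation (adjusted p = 9.18e-05). Of 10 mast cell and basophil genes 9 were on the array and 3 were kept. Mcpt8, Ms4a2, Fcer1a, Mcpt4, Tpsb2 and Cma1 were detected on no array. Of the kept genes 3 were lower in stimulated Naive and 1 in resting Th2 cells, and Prss34 passed the filter through resting Naive arrays alone. Hdc, the histamine-forming enzyme of mast cells and basophils, had differences of -1.48 and -2.10, both called lower. Cd8b1, the beta chain of CD8, averaged 8.49 in resting Naive cells, was detected on all 24 arrays and had differences of -1.10 and -0.99, both called lower. Cd8a, the only other gene of the CD8 T cell list, was on the array but was detected on none of the 24 arrays. Of 5 platelet genes 3 were lower in each comparison. Of the 12 T cell identity genes 9 were lower in stimulated Naive cells, Thy1 among them (a difference of -1.59), while Th2 cultures at rest had 2 higher and 2 lower.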
